A study of Mus musculus with 8 samples.

Results

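The genes described here are the amino acid transporter families Slc1, Slc3, Slc6, Slc7, Slc36, Slc38 and Slc43 of the mouse. Members were taken by gene symbol alone, as every gene of the table named after 1 of these 7 families, with 1 matching gene left out by the rule. This gave 57 members of 32098 genes: 7 of Slc1, 2 of Slc3, 16 of Slc6, 14 of Slc7, 4 of Slc36, 11 of Slc38 and 3 of Slc43. Their RNA was measured in 8 tumours of 4T1, a mouse mammary carcinoma line labelled WT, by RNA sequencing of total RNA from whole harvested tumours. All 8 tumours received an immune checkpoint inhibitor. For 4 of them it was the only treatment (ICI, replicates 1, 2, 3 and 4), and for the other 4 it was combined with radiation (RI, replicates 1, 2, 4 and 5). There was no untreated group and no group with radiation alone, so the comparison of RI with ICI is the only one the design allows. The inhibitor, the dose, the age of the animals and the place of each tumour relative to the irradiated field are not in the labels. The labels also do not state that the tumours came from separate animals, so each p-value reflects only how these samples vary, and that variation may be technical.

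Amino acids are charged or polar and cross membranes through carrier proteins. At the cell surface, sodium-coupled carriers concentrate small neutral amino acids such as glutamine and alanine inside the cell, and exchangers then trade these for leucine, isoleucine, phenylalanine and other large or branched amino acids. Several exchangers work only as a pair of proteins. The light chain, of family Slc7, carries out the exchange, and the heavy chain, of family Slc3, brings the pair to the surface. On lysosomes, other members of the same families return amino acids from degraded protein to the cytosol and report their abundance to the growth regulator mTORC1.

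The values are FPKM, fragments scaled to gene length and to library size, a scale that corrects for gene length and so allows levels of different genes to be compared. The depth recovered from the steps between low values ran from 27000800 to 42587800 fragments per tumour, which corresponds to 1327 to 6715 fragments for Slc7a5. The libraries also differed in other genes. Genes of the mitochondrial genome took 4.37% to 8.14% of fragments in ICI and 2.56% to 3.22% in RI. In RI 4, 3 ribosomal-RNA-like genes made up 60.7% of the summed FPKM, against at most 2.25% in the other tumours. In ICI 1 the summed level of 8 neutrophil genes was 21399 FPKM, while ICI 2, 3 and 4 had 258 to 671 and the RI tumours 108 to 282, and the summed endothelial level was 294 FPKM against 16.8 to 48.2 elsewhere. Of the 4T1 carcinoma markers, Krt8 and Krt18 were at least 412 and 333 FPKM in all 8 tumours, whereas Epcam ranged from 0 to 5.02 FPKM. Because whole tumours were sequenced, fewer cells of a type and less RNA per cell cannot be told apart in any result below.

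The transporter genes that rose in RI were the light chains Slc7a5 and Slc7a8, the arginine carrier Slc7a1, the leucine carrier Slc43a2 and the glutamine carriers Slc38a1 and Slc38a10. Increases of the group mean ran from 1.37-fold for Slc38a10 to 2.57-fold for Slc7a1. No transporter gene passed the test in the other direction, although Slc38a2, the second most abundant one, had lower values in all 4 RI tumours. The test was limma on log2(FPKM + 1) over the 13439 genes that reached 1 FPKM in 4 or more of the 8 tumours, and a gene passed with a Benjamini-Hochberg adjusted p under 0.05. Of the 57 members 22 were tested and 35 lay below the filter.

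Of the 22 members tested, 6 rose, 0 fell and 16 did not pass. The 6 are 27.3% of the members tested, beside 11.1% of all genes tested that were called higher in RI, 6.60% called lower and 17.7% called in either direction. At an unadjusted p under 0.05 there were 9 members, of which 1, Slc38a2, was lower in RI, beside 20.4% of all genes higher and 15.5% lower. Limma voom on the recovered fragments called 8 members higher and 0 lower, beside 18.1% and 8.26% of all genes. Without any test, 6 members had all 4 RI values above all 4 ICI values, 1 had all 4 below, and 15 had overlapping groups. Among all genes tested 16.7% had RI entirely above ICI and 11.2% entirely below. The median difference, RI minus ICI on the log2(FPKM + 1) scale, was 0.18 over the members tested and 0.011 over all genes tested. On this scale the change of a gene with low FPKM is understated.

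**Figure D1:**
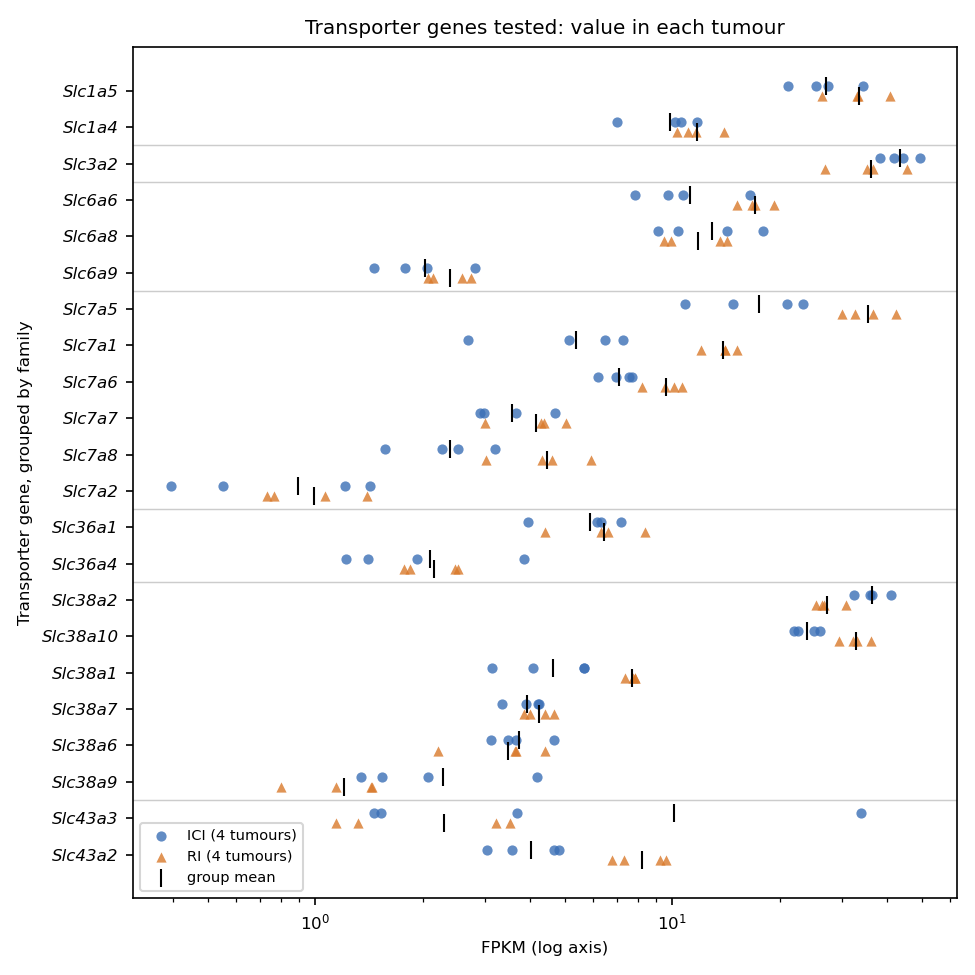
FPKM of the 22 transporter genes tested, on a log axis, with 1 point per tumour (circles ICI, triangles RI), the group mean as a vertical tick, and grey lines between families. The RI triangles lie to the right of all ICI circles for Slc7a5, Slc7a1, Slc7a6, Slc38a10, Slc38a1 and Slc43a2, to the left for Slc38a2, and 1 ICI tumour stands far from the rest for Slc43a3.

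The summed FPKM of all members ran from 225 to 280.5 in ICI and from 235 to 312 in RI, and the ranges overlapped. Between 95.4% and 99.2% of that sum came from the 22 members tested. By mean FPKM over the 8 tumours the leading members were Slc3a2 at 39.7, Slc38a2 at 31.8, Slc1a5 at 30.1, Slc38a10 at 28.3 and Slc7a5 at 26.4, followed by Slc6a6 at 14.1, Slc6a8 at 12.4, Slc1a4 at 10.8 and Slc7a1 at 9.62. Among families, the sum over Slc7 members was 30.8, 45.5, 43.9 and 33.0 FPKM in ICI 1, 2, 3 and 4 and 68.2, 73.8, 57.5 and 78.3 FPKM in RI 1, 2, 4 and 5. The groups did not overlap for Slc7. For Slc38 the sums were 71.5 to 80.5 FPKM in ICI and 71.0 to 80.7 FPKM in RI, so the groups overlapped; its members differed in both directions.

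The heavy chain Slc3a2 (ENSMUSG00000010095, chr19:8706882-8723369, GRCm38) was the most abundant transporter RNA. It measured 49.3, 41.9, 44.2 and 38.2 FPKM in ICI 1, 2, 3 and 4 and 35.1, 36.4, 26.8 and 45.5 FPKM in RI 1, 2, 4 and 5. The groups overlapped through RI 5, which was higher than 3 of the ICI tumours, and RI 4 was lowest. The difference was -0.28 ± 0.18 (SE, n = 4 and 4) on the log2 scale, and Slc3a2 did not pass (limma, adjusted p = 0.282).

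Its light chain partner Slc7a5, which exchanges leucine and other large neutral amino acids (ENSMUSG00000040010, chr8:121881150-121907694), measured 10.9, 23.3, 21.0 and 14.8 FPKM in the ICI tumours and 32.6, 36.6, 29.8 and 42.5 FPKM in the RI tumours. Every RI tumour exceeded every ICI tumour, and ICI 1 was lowest. The rise of the mean was from 17.5 ± 5.68 to 35.4 ± 5.52 FPKM (± SD, n = 4 in each group), or by 1.02 ± 0.23 on the log2 scale (± SE; limma, adjusted p = 0.0229). Leaving out 1 tumour kept Slc7a5 past the threshold in 5 of 8 cases, with adjusted p = 0.0728 without ICI 4, 0.0613 without RI 2 and 0.0583 without RI 5.

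Slc7a8, a light chain with broader neutral substrates (ENSMUSG00000022180, chr14:54722209-54781946), was much less abundant. The ICI tumours measured 2.50, 3.19, 2.26 and 1.57 FPKM and the RI tumours 4.62, 5.92, 3.02 and 4.31 FPKM. RI 4 lay below ICI 2, so the groups overlapped by 1 tumour. The rise of the mean was from 2.38 ± 0.668 to 4.47 ± 1.19 FPKM (± SD, n = 4 in each group), or by 0.69 ± 0.21 on the log2 scale (± SE; limma, adjusted p = 0.0476). This call was close to the threshold and held in 3 of 8 fits with 1 tumour left out. It was lost without ICI 3, ICI 4, RI 1, RI 2 or RI 5, where adjusted p ran from 0.0801 to 0.124.

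The other light chains of the same heavy chain that were tested, Slc7a6 and Slc7a7, exchange cationic for neutral amino acids. Slc7a6 was 7.11 ± 0.688 FPKM in ICI and 9.64 ± 1.03 FPKM in RI, with no overlap between the groups, and did not pass (log2 difference 0.39; limma, adjusted p = 0.0633). It passed with upper-quartile scaling (adjusted p = 0.0270), with median centring (0.0345), with voom on the recovered fragments (0.0184), without ICI 1 (0.0485) and without RI 4 (0.0474). These were the only 2 of 8 fits with 1 tumour left out that passed, and adjusted p ran up to 0.164. Slc7a6 did not pass with FPKM rescaled to an equal sum per tumour (0.584) or with the replicate number as a block (0.238). Once the trends of each library with exon length and GC content had been removed, the log2 difference was 0.25 (adjusted p = 0.0981). Slc7a7 was 3.55 ± 0.833 and 4.17 ± 0.857 FPKM with overlapping groups (adjusted p = 0.487).

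Light chain and heavy chain RNA stood in different proportions in the treatment groups. The ratio of Slc7a5 to Slc3a2 FPKM was 0.220, 0.555, 0.475 and 0.387 in ICI 1, 2, 3 and 4 and 0.928, 1.00, 1.11 and 0.934 in the RI tumours 1, 2, 4 and 5. All 4 RI ratios lay above all 4 ICI ratios, and ICI 1 was lowest. The light chains Slc7a5, Slc7a6, Slc7a7, Slc7a8 and the low Slc7a10 summed, over Slc3a2, gave 0.506 to 0.884 in ICI and 1.36 to 1.64 in RI, again without overlap. Slc7a5 made up 43.5% to 62.7% of this sum in ICI and 63.0% to 68.8% in RI. The gene left out by the rule, also of family Slc7, is not in the sum, so the share and the summed ratio cover these light chains only. These ratios were formed after the values of both genes were known and carry no test. They do not depend on the scaling of a library, since both genes are scaled alike.

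**Figure D2:**
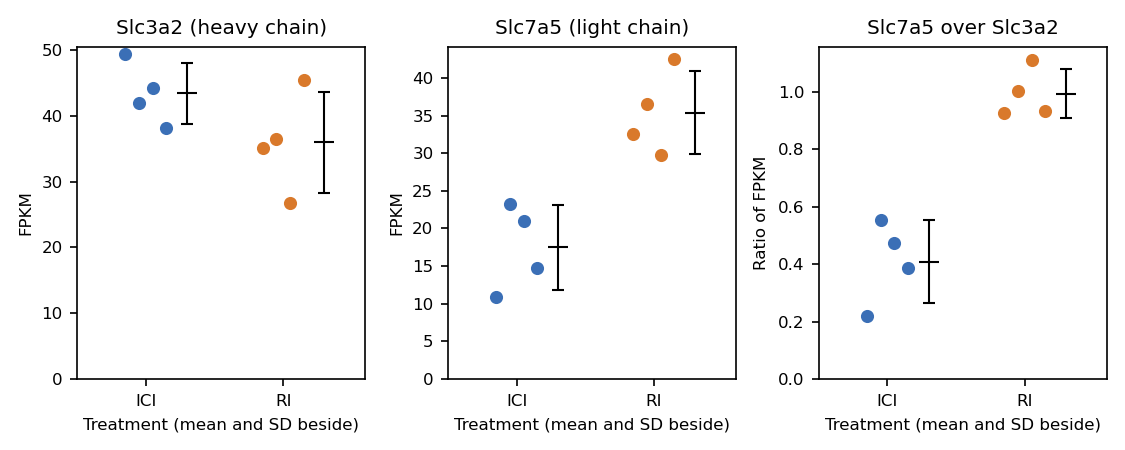
FPKM of the heavy chain Slc3a2, FPKM of the light chain Slc7a5 and the ratio of these values, with 1 point per tumour and the mean with SD beside each group of 4. Slc3a2 values overlap between ICI and RI, whereas the ratio is at most 0.555 in ICI and at least 0.928 in RI.

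Slc7a1, a widespread carrier of arginine, lysine and ornithine (ENSMUSG00000041313, chr5:148327410-148399904), works without a heavy chain and had the largest difference among the members that passed. It measured 2.67, 7.28, 6.47 and 5.13 FPKM in the ICI tumours and 15.2, 14.1, 12.1 and 14.0 FPKM in the RI tumours. The lowest RI tumour was above the highest ICI tumour, and the RI tumours were close together while ICI 1 was low. The rise of the mean was from 5.39 ± 2.01 to 13.9 ± 1.32 FPKM (± SD, n = 4 in each group), or by 1.28 ± 0.24 on the log2 scale (± SE; limma, adjusted p = 0.0152). Without ICI 1 the difference was 1.03 (adjusted p = 0.00916). Of the 8 fits with 1 tumour left out, 7 kept the call, and without ICI 4 adjusted p was 0.0508.

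The other cationic carriers were low. Slc7a2, which supplies arginine to macrophages among other cells, was 0.897 ± 0.502 FPKM in ICI and 0.991 ± 0.309 FPKM in RI and did not pass (limma, adjusted p = 0.787). Slc7a3 lay below the filter, at 0.882, 0.544, 0.799 and 0.547 FPKM in ICI and 0.362, 0.271, 0.232 and 0.459 FPKM in RI. Its RI values were all below its ICI values. An exact permutation test over the 70 regroupings of the tumours gave Slc7a3 a two-sided p = 0.0286, the smallest this design can give, and an adjusted p = 0.571 over the 20 low members tested in this way.

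In the Slc43 family, Slc43a2, which lets leucine, phenylalanine and methionine pass without an exchange partner (ENSMUSG00000038178, chr11:75531694-75577575), rose. The ICI tumours measured 3.55, 4.67, 4.83 and 3.04 FPKM and the RI tumours 9.27, 6.77, 7.33 and 9.61 FPKM. The groups were well apart, with RI 2 as the lowest RI tumour. The rise of the mean was from 4.02 ± 0.870 to 8.25 ± 1.41 FPKM (± SD, n = 4 in each group), or by 0.88 ± 0.17 on the log2 scale (± SE; limma, adjusted p = 0.0153). Of the 8 fits with 1 tumour left out 7 kept the call, and without ICI 4 adjusted p was 0.0530. Exons of a gene on the opposite strand cover 9.18% of its exon bases, and whether the counting used the strand is not given in the sources used here.

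Slc43a3, a nucleobase carrier placed in this family by its sequence (ENSMUSG00000027074, chr2:84936579-84958509), had the highest mean of the family because of a single tumour. It measured 33.8, 1.53, 1.46 and 3.69 FPKM in the ICI tumours and 1.14, 3.52, 1.32 and 3.20 FPKM in the RI tumours. ICI 1 was far above every other tumour, and the other 7 tumours overlapped. The log2 difference was -0.86 ± 0.80 (SE; limma, adjusted p = 0.473) with ICI 1 and 0.018 without it (adjusted p = 0.975). The neutrophil and endothelial marker sums given above were also far higher in ICI 1 than in any other tumour, and their part in the Slc43a3 value was not tested. The remaining member, Slc43a1, stayed between 0.0429 and 0.887 FPKM.

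The promoter windows of Slc7a1 and Slc43a2, which rose, and of Slc38a2, whose values were lower in RI, are given as the 250 bases before the RefSeq start that lies farthest upstream, on the strand of the gene (GRCm38.p6). Capitals mark GGGCGG or its complement CCGCCC, the GC box. The windows are chr5:148399905-148400154 on the minus strand for Slc7a1, chr11:75531444-75531693 on the plus strand for Slc43a2 and chr15:96699729-96699978 on the minus strand for Slc38a2.
Slc7a1: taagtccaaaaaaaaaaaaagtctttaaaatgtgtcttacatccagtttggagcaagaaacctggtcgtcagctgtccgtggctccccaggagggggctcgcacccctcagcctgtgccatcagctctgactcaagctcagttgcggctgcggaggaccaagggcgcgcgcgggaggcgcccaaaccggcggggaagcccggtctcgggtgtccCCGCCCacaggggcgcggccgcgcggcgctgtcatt
Slc43a2: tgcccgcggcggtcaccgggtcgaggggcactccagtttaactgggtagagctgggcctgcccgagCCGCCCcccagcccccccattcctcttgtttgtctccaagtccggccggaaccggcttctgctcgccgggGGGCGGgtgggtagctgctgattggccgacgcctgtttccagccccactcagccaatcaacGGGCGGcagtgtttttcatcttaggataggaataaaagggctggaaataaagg
Slc38a2: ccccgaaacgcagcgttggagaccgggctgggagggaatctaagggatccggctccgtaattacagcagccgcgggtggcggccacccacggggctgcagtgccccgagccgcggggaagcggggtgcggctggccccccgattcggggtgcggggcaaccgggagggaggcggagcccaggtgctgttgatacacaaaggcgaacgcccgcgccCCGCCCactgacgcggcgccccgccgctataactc

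Slc43a2 held 3 GC boxes in this window, and Slc7a1 and Slc38a2 held 1 each. On both strands, 3 motifs were searched: TGATGNAA, the core of the amino acid response element bound by ATF4 with a C/EBP factor, CACGTG, the E-box bound by MYC and by TFEB and TFE3, and GGGCGG. RefSeq promoter entries were found for 40 of the 57 members, with 61 windows in all, and neither Slc7a5 nor Slc38a1 was among them. TGATGNAA was present in 3 of these 61 windows, beside 3.45% of 32851 windows of all genes, and these belonged to Slc7a7 and Slc6a21. CACGTG was present in 8 member windows, beside 6.02% of all windows, and none of these belonged to a member that rose. GGGCGG was present in 29 member windows, beside 32.7% of all windows. No matches of different motifs overlapped in the windows of Slc7a1, Slc43a2 and Slc38a2. Response elements outside these 250 bases were not searched.

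Slc38a1 and Slc38a2 are sodium-coupled carriers of glutamine and alanine, encoded near each other on chromosome 15. Slc38a1 (ENSMUSG00000023169, chr15:96571418-96642913) measured 3.12, 5.65, 5.65 and 4.07 FPKM in the ICI tumours and 7.77, 7.88, 7.37 and 7.86 FPKM in the RI tumours. The RI tumours were nearly equal and all above the ICI tumours, of which ICI 1 was lowest. The rise of the mean was from 4.62 ± 1.25 to 7.72 ± 0.238 FPKM (± SD, n = 4 in each group), or by 0.66 ± 0.17 on the log2 scale (± SE; limma, adjusted p = 0.0310).

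The call on Slc38a1 held in 3 of 8 fits with 1 tumour left out. Without ICI 4, RI 1, RI 2, RI 4 or RI 5 adjusted p ran from 0.0533 to 0.0903. It also did not pass once the trends of each library with exon length and GC content had been removed (log2 difference 0.32, adjusted p = 0.145). At 17236 bases, its exons are the longest of the members tested.

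Slc38a2 (ENSMUSG00000022462, chr15:96687392-96699730) measured 40.9, 32.4, 36.2 and 35.8 FPKM in the ICI tumours and 26.3, 30.6, 26.6 and 25.3 FPKM in the RI tumours. All RI tumours were below all ICI tumours, with ICI 2 and RI 2 the closest. The means were 36.3 ± 3.50 and 27.2 ± 2.35 FPKM (± SD, n = 4 in each group), with a log2 difference of -0.40 ± 0.13 (SE), which did not pass (limma, adjusted p = 0.0651). It passed as lower in RI with upper-quartile scaling (log2 difference -0.43, adjusted p = 0.0424), with median centring (-0.45, adjusted p = 0.0360) and after removal of the length and GC trends (-0.71, adjusted p = 0.0123). With 1 tumour left out it passed in 0 of 8 fits (adjusted p from 0.0791 to 0.143). Nor did it pass with voom on the recovered fragments (-0.36, adjusted p = 0.0831) or with the replicate number as a block (-0.37, adjusted p = 0.334). With FPKM rescaled to an equal sum per tumour the difference was -0.32 (adjusted p = 0.778). Among the members tested that had a lower mean in RI, Slc38a2 was the only one whose groups did not overlap.

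The ratio of Slc38a1 to Slc38a2 FPKM was 0.0762 to 0.174 in ICI and 0.257 to 0.311 in RI, without overlap. Like the light chain ratio it was formed with the values known and carries no test. Slc38a2 remained the more abundant of the pair in every tumour.

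Slc38a10, a glutamine and glutamate carrier of the same family (ENSMUSG00000061306, chr11:120103960-120151346), was the most abundant of the members that passed over both groups together. It measured 22.5, 26.0, 24.9 and 22.0 FPKM in the ICI tumours and 32.2, 33.1, 29.4 and 36.1 FPKM in the RI tumours, with no overlap. The rise of the mean was from 23.9 ± 1.94 to 32.7 ± 2.78 FPKM (± SD, n = 4 in each group), or by 0.44 ± 0.13 on the log2 scale (± SE; limma, adjusted p = 0.0471). The call held in 1 of 8 fits with 1 tumour left out, that without RI 4. In the other 7, each leaving out another tumour, adjusted p ran from 0.0527 to 0.130. Exons of a gene on the opposite strand cover 5.72% of its exon bases.

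Slc1a5, the sodium-coupled exchanger best known for glutamine uptake in tumour cells (ENSMUSG00000001918, chr7:16781340-16798274), measured 25.2, 27.4, 34.3 and 21.2 FPKM in the ICI tumours and 32.9, 40.7, 26.3 and 33.2 FPKM in the RI tumours. The groups overlapped: RI 4 lay below 2 ICI tumours and ICI 3 above 3 RI tumours. The means were 27.0 ± 5.49 and 33.3 ± 5.88 FPKM, a log2 difference of 0.30 ± 0.19 (SE) that did not pass (limma, adjusted p = 0.283). Its relative Slc1a4, which carries alanine, serine and cysteine, was 9.87 ± 2.03 and 11.8 ± 1.59 FPKM with overlap (adjusted p = 0.328). The remaining members of Slc1, glutamate carriers best known from the nervous system, lay below the filter.

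None of Slc38a9, Slc36a1 and Slc38a7, members known to act on lysosomes, passed. Slc38a9, an arginine-gated carrier and sensor that acts on mTORC1 (ENSMUSG00000047789, chr13:112660751-112738749), measured 4.17, 1.34, 1.54 and 2.07 FPKM in the ICI tumours and 1.44, 1.15, 0.803 and 1.43 FPKM in the RI tumours. ICI 1 was the highest, ICI 2 lay within the RI range, and RI 4 was lowest. The log2 difference was -0.51 ± 0.25 (SE; limma, adjusted p = 0.181) and was -0.27 without ICI 1 (adjusted p = 0.328). Slc36a1, a proton-coupled exporter of small neutral amino acids (ENSMUSG00000020261, chr11:55204350-55236330), measured 7.18, 3.94, 6.14 and 6.32 FPKM in the ICI tumours and 6.32, 6.62, 4.41 and 8.41 FPKM in the RI tumours. The groups covered nearly the same range, with a log2 difference of 0.11 ± 0.21 (SE; adjusted p = 0.740).

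Slc38a7, which releases glutamine and asparagine from lysosomes, was 3.92 ± 0.424 FPKM in ICI and 4.24 ± 0.379 FPKM in RI (limma, adjusted p = 0.631). Slc36a4 was 2.10 ± 1.21 and 2.15 ± 0.393 FPKM (adjusted p = 0.825), with ICI 1 the highest at 3.86 FPKM. Slc38a6 was 3.72 ± 0.671 and 3.47 ± 0.914 FPKM (adjusted p = 0.742). All 3 had overlapping groups.

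The Slc6 family carries mostly neurotransmitters, osmolytes and creatine, and 3 of its 16 members were tested. Slc6a6, the taurine carrier (ENSMUSG00000030096, chr6:91684053-91759066), measured 16.6, 9.74, 7.88 and 10.7 FPKM in the ICI tumours and 16.8, 19.3, 15.2 and 17.0 FPKM in the RI tumours. Only ICI 1 reached the RI range, and it lay above RI 4. The means were 11.2 ± 3.76 and 17.1 ± 1.70 FPKM, a log2 difference of 0.61 ± 0.20 (SE) that did not pass (limma, adjusted p = 0.0663). Without ICI 1 the difference was 0.80 and passed (adjusted p = 0.0101). This was the only 1 of 8 fits with 1 tumour left out that passed, and adjusted p ran up to 0.156. Slc6a6 also passed with voom on the recovered fragments (adjusted p = 0.0367). After removal of the length and GC trends the difference was 0.35 and did not pass (adjusted p = 0.240).

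Slc6a8, the creatine carrier, was 12.9 ± 3.97 FPKM in ICI and 11.8 ± 2.45 FPKM in RI (limma, adjusted p = 0.788). The glycine carrier Slc6a9 was 2.03 ± 0.576 and 2.38 ± 0.324 FPKM (adjusted p = 0.493), and exons of genes on the opposite strand cover 30.2% of its exon bases.

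**Figure D3:**
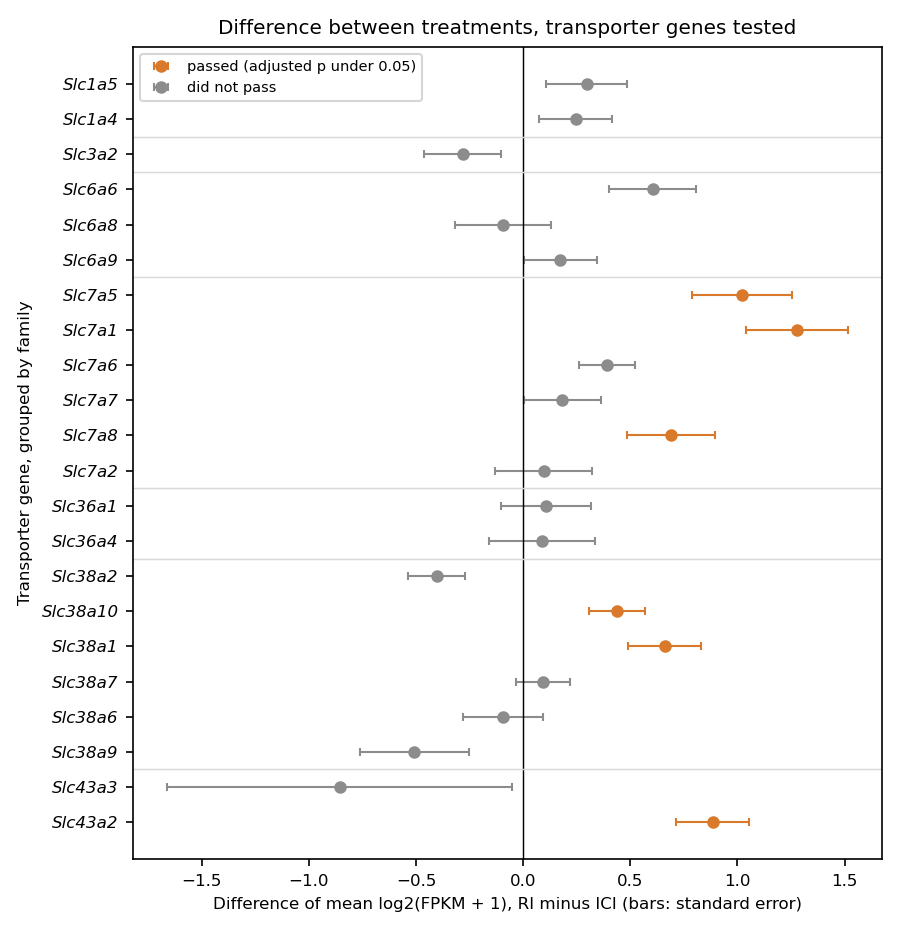
Difference of mean log2(FPKM + 1), RI minus ICI, for the 22 transporter genes tested, with bars of 1 standard error from limma (4 tumours per group). The 6 orange points passed at an adjusted p under 0.05 and lie between 0.44 and 1.28, and no gene passed below 0.

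The 35 members below the filter were mostly near 0. Of these, 15 stayed under 0.1 FPKM in all 8 tumours, 20 reached it in at least 1 tumour, and 6 reached 1 FPKM in a tumour. An exact permutation test of the 20 gave 1 member with an unadjusted two-sided p under 0.05, Slc7a3, and 0 after Benjamini-Hochberg adjustment. Some of the others, such as Slc3a1, Slc38a4 and Slc7a4, had values spread over all 8 tumours, and several were high in 1 or 2 tumours only.

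Slc6a14, a broad carrier of neutral and cationic amino acids found in some epithelia, had 218 fragments in ICI 1 and 396 in ICI 4, which is 1.93 and 2.71 FPKM. It had 0 fragments in the other 6 tumours. In the RI tumours a count of 0 allows up to 3 fragments, or 0.0205 to 0.0324 FPKM, counting error only. ICI 1 and ICI 4 were also the tumours with the highest Epcam, at 5.02 and 3.19 FPKM against 0 to 1.06 FPKM elsewhere. Of the other carcinoma markers, Krt7, Krt19 and Cldn4 were likewise highest there. Krt8 and Krt18 peaked in ICI 4 as well, at 1064 and 877 FPKM. ICI 1, with 468 and 438 FPKM, lay below RI 5, with 792 and 577 FPKM. Cdh1 was highest in RI 5 (10.5 FPKM), followed by ICI 4 (8.86 FPKM) and then ICI 1 (6.74 FPKM). The part of carcinoma cells in the Slc6a14 values was not tested.

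In RI 2 the proton-coupled carrier Slc36a2, known as a surface protein of brown and beige fat cells, reached 5.66 FPKM (592 fragments). The glutamate carrier Slc1a3 reached 1.76 FPKM (484 fragments) in the same tumour. The next highest values were 2.02 FPKM in ICI 1 for Slc36a2 and 0.395 FPKM in ICI 1 for Slc1a3. In RI 2 the sum of 6 adipocyte genes was 351 FPKM, against 3.04 to 18.6 FPKM in the other tumours. Its part in these values was not tested.

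ICI 1 held the highest value of several others. The noradrenaline carrier Slc6a2 had 377 fragments there (1.82 FPKM) and at most 12 in any other tumour. Slc6a15 and Slc38a5, carriers of neutral amino acids and of glutamine, had 44 and 12 fragments in ICI 1 and 0 elsewhere. Slc7a10, an exchanger of small neutral amino acids, reached 0.877 FPKM in ICI 1. Slc3a1, the heavy chain of kidney and intestine, was highest in ICI 3 instead. It ranged from 0.269 to 1.04 FPKM in ICI and from 0.326 to 0.589 FPKM in RI.

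**Figure D4:**
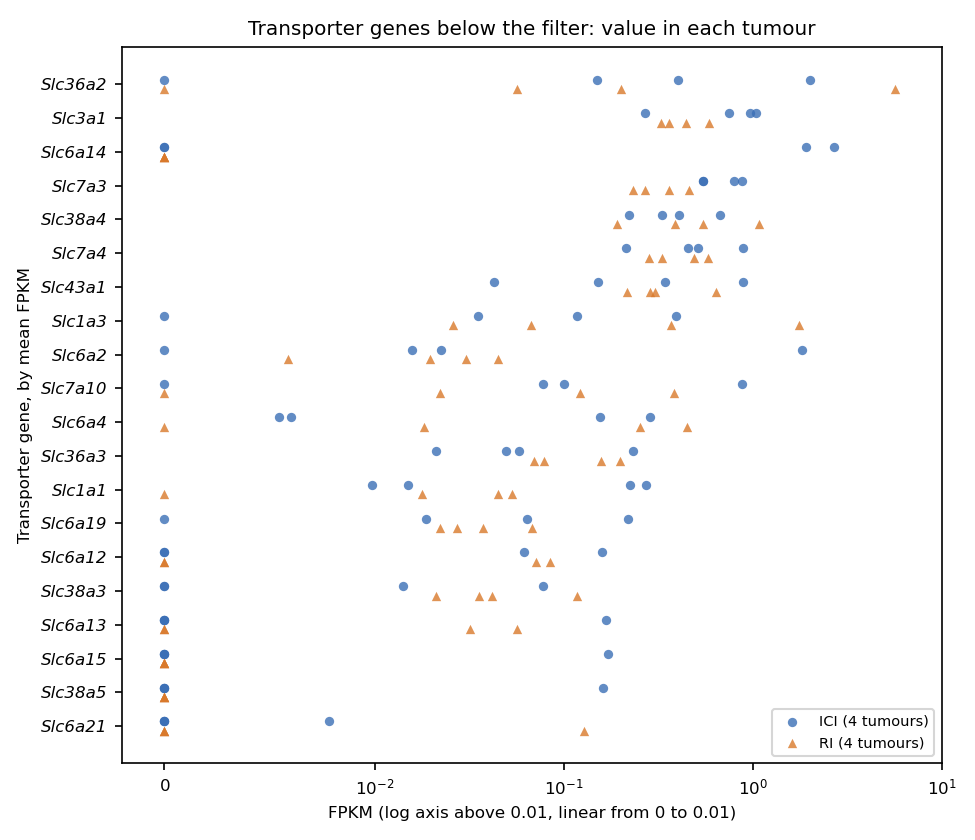
FPKM of the 20 transporter genes below the filter that reached 0.1 FPKM in at least 1 tumour, with 1 point per tumour (circles ICI, triangles RI), on an axis that is linear from 0 to 0.01 and logarithmic above. Values at 0 are at the left edge, and points far to the right of their row include Slc6a2 in ICI 1 at 1.82 FPKM, Slc1a3 in RI 2 at 1.76 FPKM, and Slc6a14 in ICI 1 and ICI 4 at 1.93 and 2.71 FPKM. The highest value plotted is that of Slc36a2 in RI 2 at 5.66 FPKM.

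Several measured properties of the libraries and genes moved with these differences. The calls depended most on ICI 4: without it 0 of the 6 members passed, with adjusted p from 0.0508 to 0.130 and log2 differences from 0.40 to 1.28, and the share of all genes called higher dropped to 1.81%. Without RI 1, RI 2 or RI 5 there were 3, 2 and 2 members called higher, beside 4.15%, 3.04% and 4.77% of all genes. Without ICI 1 and RI 4, the tumours that stood apart above, the number was 8 and held all 6, beside 15.2% of all genes. With no filter, over all 32098 genes, 0 of the 6 passed (adjusted p from 0.0552 to 0.139), beside 0.592% of all genes called higher.

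The difference also varied with gene length over the whole table. In 10 equal groups of genes by exon length, the median log2 difference went from -0.38 in the shortest to 0.27 in the longest. Members tested were long, with a median of 5418 bases against 3768 for all genes tested, and the 6 members that rose spanned 3708 to 17236 bases. After removal of these trends, and of those with GC content, 5 of the 6 passed, Slc38a1 being lost, beside 11.0% of all genes called higher. Slc7a5, at 3708 bases near the middle of the length range, had a log2 difference of 1.04 in that fit.

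**Figure D5:**
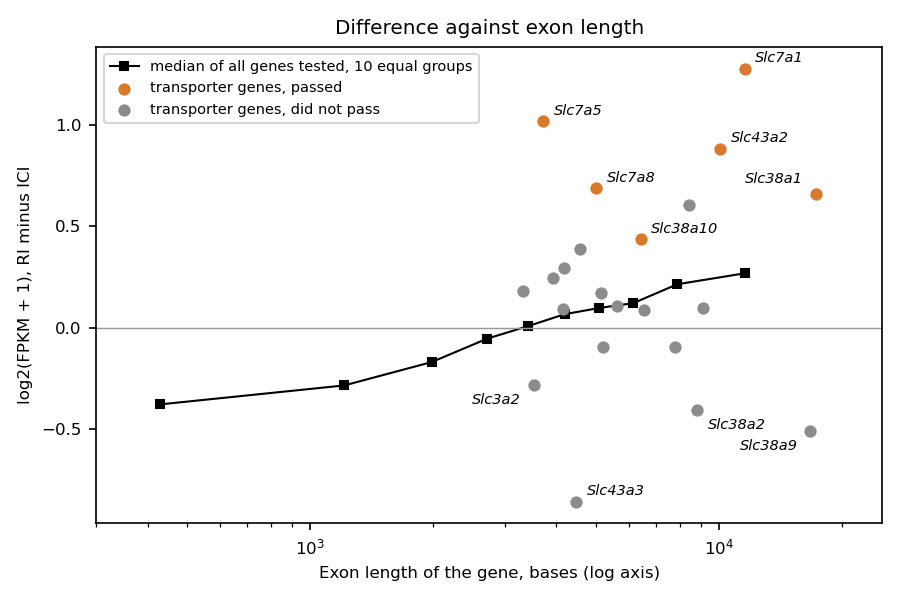
Difference of mean log2(FPKM + 1), RI minus ICI, against exon length on a log axis, for the 22 transporter genes tested (points, orange where the test was passed) and as the median of all genes in 10 equal groups by length (black squares). The black line climbs from -0.38 to 0.27, and the 6 orange points lie between 0.44 and 1.28.

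Scaling changed the counts more than the order of the members. With TPM, FPKM rescaled to an equal sum per tumour, 1 member passed, Slc7a1 (adjusted p = 0.0235), beside 1.43% of all genes, and the median difference of all genes was 0.11. Relative to that median the 6 members differed by 0.43 to 1.35, Slc7a1 the most, so the differences were about as large as without this rescaling while adjusted p ran up to 0.583. With FPKM rescaled after leaving out mitochondrial genes and the 3 ribosomal-RNA-like genes, that median was 0.29 and 11 members passed, the 6 among them, beside 33.3% of all genes called higher. Relative to that shift the 6 members differed by 0.48 to 1.29. Before the shift was subtracted, Slc3a2, Slc6a8 and Slc38a6 were at 0.042, 0.21 and 0.16, and Slc38a2 at -0.080. Relative to the shift these 4 were at -0.24, -0.071, -0.12 and -0.37, all below 0 as in the fit used here. On this relative scale 1 of the 22 members, Slc7a2, had the other sign. Over all genes, 1486 were called higher and 887 lower in the fit used here, 1500 and 1623 with median centring, and 4471 and 496 with the rescaled FPKM.

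Markers of other cell types differed between the groups as well. The sum of 7 fibroblast genes was 47.9 to 67.0 FPKM in ICI and 103 to 510 FPKM in RI, and 4 of the 7 were called higher. Mast cell genes summed to 4.66 to 17.6 and 17.6 to 56.2 FPKM, with 3 of 6 tested called higher, and Tpsb2 and Mcpt4 were at 0 in ICI 1. Skeletal muscle genes summed to 1.88 to 229 and 102 to 541 FPKM, with 2 of 6 called higher and Myh4 at 0 in ICI 1 and ICI 4. Macrophage genes summed to 376 to 480 and 349 to 863 FPKM, with 2 of 8 called higher and 1 lower. Neutrophil genes had 2 of 7 tested called lower, with Ly6g at 0 in 3 RI tumours. Mmp9, the 1 tested gene of this list with a difference above 0, went from 55.7 to 115 FPKM. It did not pass (limma, adjusted p = 0.104). Mmp9 held 69.6 to 203 FPKM of the neutrophil sums of 108 to 282 FPKM in RI. Erythroid genes summed to 209 to 1064 FPKM in ICI and 0.465 to 103 FPKM in RI, without overlap, and 2 of 4 tested, Hba-a1 and Hbb-bt, were called lower. Hba-a2, Hbb-bs and Hbb-bt were at 0 in RI 5. B and plasma cell genes summed to at least 6.07 FPKM in every ICI tumour and at most 5.51 FPKM in every RI tumour, with 0 of 2 tested called. T cell genes summed to 7.98 to 23.0 and 4.79 to 11.8 FPKM, with 1 of 3 tested, Trac, called lower. Skin keratinocyte genes summed to 1.71 to 2.50 and 0.517 to 1.36 FPKM, and the 1 gene tested, Krt10, was called lower. Endothelial, adipocyte and nerve and glia sums overlapped between the groups, with no gene called. The 7 carcinoma genes summed to 978 to 2021 and 776 to 1413 FPKM with 0 of 4 tested called. The part of these cell types in the transporter differences was not tested.

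Other genes of amino acid supply and sensing were read from 5 lists, with 118 genes in all. Of these 101 were tested and 14, or 13.9%, were called in either direction, which is below the 17.7% of all genes. At an unadjusted p under 0.05, used beside each list, 20.4% of all genes were higher and 15.5% lower, and voom called 18.1% and 8.26%. Of 21 carriers of other families 11 were tested, 3 rose, 0 fell and the median log2 difference was 0.42. The 3 were the mitochondrial aspartate and glutamate carriers Slc25a12, from 2.55 ± 0.524 to 5.15 ± 0.460 FPKM (limma, adjusted p = 0.0152), and Slc25a13, from 8.78 ± 2.87 to 17.9 ± 0.826 FPKM (adjusted p = 0.0183), and the lysosomal histidine and peptide carrier Slc15a4, from 2.54 ± 0.359 to 4.03 ± 0.520 FPKM (adjusted p = 0.0379). At an unadjusted p under 0.05 there were 6 carriers higher and 0 lower, and voom on the recovered fragments called 6 higher and 0 lower. Slc15a3, a relative of Slc15a4, was 3.83 and 6.10 FPKM and did not pass (adjusted p = 0.0693). Slc25a12 kept its call in all 8 fits with 1 tumour left out, Slc25a13 in 6 and Slc15a4 in 1.

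Of 27 enzymes of glutamine, glutamate, arginine, branched-chain and tryptophan metabolism 23 were tested, 2 rose and 0 fell, with a median of 0.30. At an unadjusted p under 0.05 there were 5 higher and 1 lower, and voom called 4 higher and 1 lower. Odc1, which turns the Slc7a1 substrate ornithine into polyamines, measured 17.3, 72.6, 96.6 and 40.5 FPKM in ICI and 166, 161, 135 and 167 FPKM in RI (limma, adjusted p = 0.0361). The groups did not overlap and ICI 1 was lowest. Bckdhb, a subunit of the enzyme that degrades branched-chain keto acids, went from 5.41 ± 1.18 to 10.01 ± 1.07 FPKM (adjusted p = 0.0171). The arginine-forming enzymes Ass1, at 3.39 and 7.61 FPKM (adjusted p = 0.0513), and Asl, at 9.56 and 6.83 FPKM (adjusted p = 0.0508), differed in opposite directions and did not pass. Bckdhb kept its call in 6 of 8 fits with 1 tumour left out and Odc1 in 3.

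Of 20 cytosolic aminoacyl-tRNA synthetases, which load amino acids onto tRNA, all 20 were tested, 1 rose and 0 fell, with a median of 0.26. At an unadjusted p under 0.05 there were 6 higher and 1 lower, and voom called 6 higher and 0 lower. The one that passed was the isoleucine enzyme Iars, from 15.5 ± 5.93 to 26.6 ± 1.39 FPKM (limma, adjusted p = 0.0496, kept in 2 of 8 fits with 1 tumour left out). Kars, Farsb and Eprs had means of 31.8, 15.1 and 9.38 FPKM in ICI and 53.9, 24.8 and 14.7 FPKM in RI. Their adjusted p-values were 0.0544, 0.0552 and 0.0646.

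ATF4 is the transcription factor through which amino acid shortage induces several transporter genes, Slc7a1, Slc7a5, Slc3a2 and Slc38a2 among them. Of the 20 genes in the list of its response 19 were tested, 0 rose and 2 fell, with a median of -0.13. At an unadjusted p under 0.05 there were 2 higher and 5 lower, and voom called 2 higher and 3 lower. The transcription factor Cebpb went from 271 ± 65.1 to 142 ± 13.2 FPKM (limma, adjusted p = 0.0260) and the stress protein Nupr1 from 37.2 ± 11.5 to 16.4 ± 7.77 FPKM (adjusted p = 0.0332). The serine synthesis enzymes Psat1, at 18.1 and 32.0 FPKM (adjusted p = 0.0597), and Phgdh, at 70.8 and 116 FPKM (adjusted p = 0.0647), had higher means in RI and did not pass. Atf4 itself, named after its values were seen, was 106 ± 15.2 FPKM in ICI and 74.4 ± 13.3 FPKM in RI, with all RI values below all ICI values (adjusted p = 0.0825). Cebpb kept its call in 2 of 8 fits with 1 tumour left out and Nupr1 in 3.

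Of 32 genes of lysosomal amino acid sensing and mTORC1 31 were in the table and 29 were tested, 3 rose and 3 fell, with a median of 0.015. Among all genes tested 11.1% were called higher and 6.60% lower. With an unadjusted p under 0.05, 6 of the list were higher and 5 lower, and voom called 3 higher and 3 lower. Sesn3, of the sestrin family, went from 0.818 ± 0.135 to 2.74 ± 0.532 FPKM (limma, adjusted p = 0.0126). Castor2, of the arginine sensor family, went from 2.75 ± 0.594 to 4.74 ± 0.605 FPKM (adjusted p = 0.0283). Depdc5, part of an inhibitory complex, went from 1.59 ± 0.292 to 2.76 ± 0.269 FPKM (adjusted p = 0.0340). Flcn, an activator of Rag GTPases, fell from 17.9 ± 2.36 to 11.9 ± 0.760 FPKM (adjusted p = 0.0270). Lamtor2 and Lamtor4, scaffold subunits named after their values were seen, fell from 32.9 to 20.8 FPKM (adjusted p = 0.0378) and from 23.7 to 11.5 FPKM (adjusted p = 0.0485). With 1 tumour left out, Sesn3 kept its call in 8 of 8 fits, Flcn and Castor2 in 3 each, Depdc5 and Lamtor4 in 2 each and Lamtor2 in 1. Slc38a9, which acts in the same pathway, did not pass as given above.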

How the data were processed

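The titles of the 8 samples gave the group and the replicate number of each tumour. All 8 were used, although the design text speaks of 3 per group. The authors deposited 1 table of FPKM, fragments scaled to gene length and library size, for 32098 genes. The submitters' processing notes name the tool HISAT2 and the builds GRCm38 and mm10. Not given in the sources used here are the counter, the annotation release, strand use and any filter. Of the genes, 84 had no symbol and 31407 were matched by identifier to GENCODE M21, which gave coordinates and exon lengths, and all 57 members were matched.

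The members, gene lists, markers and tests were chosen with earlier results of these data known. Genes that reached 1 FPKM in 4 or more tumours were tested on log2(FPKM + 1) with limma 3.58.1 in R 4.3.3 (two-sided, eBayes with the trend and robust options). P-values were adjusted by Benjamini-Hochberg over all genes tested, and 0.05 was the threshold. Members below the filter that reached 0.1 FPKM in a tumour got an exact permutation test over all 70 regroupings of the tumours. The fit was tested on 10 simulated sets with independent normal noise and 200 shifted genes each. It recovered 62.9% of shifts of 1 log2 unit and 95.1% of shifts of 2, and 5.45% of calls were false. A gene that differs by 1 log2 unit can therefore fail to pass. Means and SDs are over the 4 tumours of a group.

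Depth was recovered from the steps between FPKM values of up to 50 fragments, of which 98.7% to 98.8% lay within 0.05 of a whole number in each library. Libraries of a group differed from one another by more than sampling noise, with a chi-square per gene of 37.6 or more. Of the list entries, 119 of 120 were found by symbol or alias. Members with values for every tumour are those that passed, the highest of each family by mean FPKM, and Slc1a5, Slc3a2, Slc7a5, Slc38a2, Slc38a9 and Slc36a1. Up to 4 genes of each list were named by smallest unadjusted p. Values of single tumours for low members, markers and the ratios were chosen after they were seen. Promoter windows came from RefSeq (GRCm38.p6). The alternatives tried were the fit on all genes, a filter on a mean of 5 FPKM, a pseudocount of 0.1 or 5, TPM, upper-quartile scaling, median centring, plain eBayes, the replicate block, removal of lowess trends on length and GC (span 0.3), voom on the recovered fragments, and tumours left out. The rescaling without mitochondrial and ribosomal-RNA-like genes was added after the data were seen.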

Additional observations from a re-analysis of the deposited data

Results flagged for a closer look

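Over the 22 members tested, the highest and lowest tumour of each group of 4 was compared with its neighbour by Dixon's ratio of gap to range, 44 groups in all. One gene had a tumour past the 95% critical value for 4 samples: Slc43a3 in ICI 1, at 33.8 FPKM, with a ratio of 0.931. Chance alone sets apart about 1 group in 20, so 1 of 44 is not more than chance gives. The other ICI tumours were at 1.53, 1.46 and 3.69 FPKM. ICI 1 is also the tumour with the highest summed neutrophil and endothelial marker levels, and their part in this value was not tested.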

How the results depend on the processing

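The number of tumours, 4 per group, limits the precision of every difference. The 6 members called higher became 0 with no filter, 1 with TPM and 11 with FPKM rescaled without mitochondrial and ribosomal-RNA-like genes, a setting chosen after seeing the data, and ran from 0 to 7 with 1 tumour left out. The shares of all genes called higher were 0.592%, 1.43% and 33.3% in the first 3 of these and 1.81% to 11.7% with 1 tumour left out. The other settings gave 5 to 8, apart from the replicate block. The 0 called lower became 1, Slc38a2, with upper-quartile scaling, median centring, and removal of length and GC trends, where 11.5%, 12.1% and 9.39% of all genes were called lower. It stayed at 0 with 1 tumour left out. With the replicate block, 0 members and 0.119% of all genes were called higher, with adjusted p of at least 0.0863 for the 6, and 0 with the block and the trend removal together. Same-numbered tumours did not deviate together (r of -0.0923, -0.120 and -0.124), and differently numbered pairs had r from -0.152 to 0.205. Only replicates 1, 2 and 4 occur in both groups, too few to decide whether the numbers pair the tumours.

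The 14 genes called in the other amino acid lists became 1 with no filter, 2 with TPM, 0 with the replicate block, 0 with the block and trend removal, 28 with voom, 24 without ICI 1 and RI 4 together, 47 with the rescaled FPKM, and 2 to 23 with 1 tumour left out. Of all genes, 17.7% were called in the fit used here, 0.751% with no filter, 2.08% with TPM, 26.3% with voom, 23.1% without ICI 1 and RI 4 and 37.0% with the rescaled FPKM. The 1 low member with an unadjusted p under 0.05 was 0 to 2 with 1 tumour left out. Without ICI 1 and RI 4 together it was 0 by construction, since 3 against 3 tumours allow 20 regroupings and no p under 0.1. For the other counts the cause was not tested.

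Members that did not pass and changed sign were these. With the rescaled FPKM, Slc3a2, Slc6a8 and Slc38a6 were at 0.042, 0.21 and 0.16, where the median of all genes was 0.29, and relative to it they stayed below 0. Slc6a8 was at -0.23 to 0.069 with 1 tumour left out. Slc43a3 was at 0.16 without ICI 1 and RI 4, and at -1.26 to 0.018 with 1 left out. Slc36a1 was at -0.013 with trend removal, -0.089 with the block added, and -0.046 to 0.25 with 1 left out. Slc38a6 was at 0.15 without ICI 1 and RI 4, and -0.19 to 0.058 with 1 left out. Slc36a4 was at -0.061 with the block, -0.13 with trend removal, -0.29 with both, and -0.050 to 0.33 with 1 left out. Slc7a2 was at -0.081, -0.20 and -0.40 in the same settings, and -0.040 to 0.23 with 1 left out. None of the 6 members called higher changed sign in any of these settings. Counted over the named genes and all settings, 706 values kept direction and side of the threshold, 70 passed where they had not, 179 no longer passed and 21 changed sign, 3 of them with the rescaled FPKM.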
